A study of Homo sapiens with 18 samples.

Results

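The genes described are 55 protein-coding genes of DNA repair and damage signalling, taken as a list of symbols from the gene count files. No response value served as a rule for the list, but it was chosen with earlier results of these data known. All 55 were present among the 60642 gene symbols of the files, and all 55 passed the filter on low counts, which kept 15298 genes. They were read in MDA-MB-231, a triple-negative breast cancer cell line of mesenchymal character. Cells were transfected with a non-specific siRNA pool (siNS), an siRNA pool against HP1γ (siHP1γ, written siHP1g in the labels, gene CBX3) or an siRNA pool against PRMT5 (siPRMT5), each at 25 nM for 48 h. They then received 100 nM of the synthetic glucocorticoid dexamethasone (Dex) or the same volume of its vehicle ethanol (Eth) for 8 h. Each of the 6 conditions had 3 replicates, so 18 libraries of total RNA were read, all from this 1 cell line. The study had addressed PRMT5, an arginine methyltransferase, and HP1γ, a heterochromatin protein, as coregulators of the glucocorticoid receptor (GR), and the repair genes were not its subject. One siRNA pool stood for each target in these libraries, so the loss of the target and any other activity of the pool cannot be told apart.

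Cells repair DNA by pathways that divide the work by the kind of lesion. A double-strand break is either rejoined directly, when the Ku heterodimer holds its ends for DNA-PK and ligase IV, or resected to single strands that invade the sister copy, which is homologous recombination. Crosslinks between the strands are handled by the Fanconi proteins, mispaired bases by the MutS and MutL proteins, nicks by PARP and the XRCC1 scaffold, and bulky adducts by nucleotide excision repair, while the kinases ATM and ATR signal that damage is present. Many recombination and Fanconi genes are transcribed mainly in S phase under E2F control, and arginine methylation by PRMT5 is known to act in the response to DNA damage. The genes were grouped by these roles into 10 classes, namely recombination mediators (6 genes), recombinase paralogs (5), end resection (4), helicases and dissolution (3), Fanconi (10), end joining (5), damage signalling (7), mismatch repair (3), single-strand break repair (4) and nucleotide excision repair (8).

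The libraries held between 8682992 and 12472381 counts, of which the 55 genes took 0.43 to 0.51%. The lowest count of a listed gene in any library was 21, for FANCF. The siRNA targets were low in their own libraries. PRMT5 stood at 249 ± 19.96 counts per 1000000 of TMM-scaled library size (CPM, mean ± SD, n = 3) in siNS Eth and at 7.41 ± 1.17 in siPRMT5 Eth, and at 239 ± 11.4 against 10.5 ± 1.07 with Dex. CBX3 stood at 256 ± 20.1 in siNS Eth and at 9.89 ± 0.657 in siHP1γ Eth, and at 230.2 ± 10.3 against 13.7 ± 2.23 with Dex. In HP1γ-depleted cells PRMT5 itself was lower, at a log2 fold change of -0.25 (adjusted p = 0.0111) with Eth and -0.35 (adjusted p = 0.00123) with Dex, whereas CBX3 in PRMT5-depleted cells gave -0.19 (adjusted p = 0.0717) and 0.16 (adjusted p = 0.120). Markers of the line went with its label in part. In siNS Eth the mesenchymal genes VIM and CD44 stood at 8355 ± 369.7 and 809 ± 44.8 CPM. AXL and CAV1 stood at 963 and 554 CPM, but SPARC, of the same kind, only at 6.67. The luminal receptor genes ESR1 and PGR stood at 0.103 ± 0.104 and 0 CPM, and the epithelial genes CDH1 and KRT19 at 0.0345 and 0.069. The epithelial keratins KRT8 and KRT18 were expressed, at 275 and 356 CPM. ERBB2, EPCAM and GATA3, also luminal or epithelial, lay between 4.74 and 25.8 CPM. Nothing in the labels says that the replicates of a condition were separate cultures, so p-values measure the spread between these libraries, which may be technical. In such bulk RNA, fewer cells of a kind and less RNA per cell cannot be told apart.

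The promoters of the genes on which the results turn are shown first. Each is the 300 bases from 250 before to 50 after a RefSeq start site (GRCh38.p14), written in the direction of transcription. Capitals mark a match, on either strand, to one of 4 letter strings of the E2F site, TTTGGCGC, TTTCCCGC, TTTCGCGC or TTTGCCGC. FANCD2, XRCC2, FANCA and MSH6 are shown because they were lower in PRMT5-depleted cells with both treatments and hold such a match. FANCA and MSH6 were also lower in HP1γ-depleted cells with both treatments. RAD51C, which was also lower, and BRCA2, which was higher, are shown because they hold none.
FANCD2, chr3:10026187-10026486, plus strand: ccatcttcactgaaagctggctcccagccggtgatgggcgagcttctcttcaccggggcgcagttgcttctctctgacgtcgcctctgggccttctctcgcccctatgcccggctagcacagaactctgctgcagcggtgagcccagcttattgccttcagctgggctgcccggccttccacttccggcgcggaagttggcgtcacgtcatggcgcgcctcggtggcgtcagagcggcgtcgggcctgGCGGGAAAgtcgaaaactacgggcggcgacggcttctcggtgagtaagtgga
XRCC2, chr7:152676092-152676391, minus strand: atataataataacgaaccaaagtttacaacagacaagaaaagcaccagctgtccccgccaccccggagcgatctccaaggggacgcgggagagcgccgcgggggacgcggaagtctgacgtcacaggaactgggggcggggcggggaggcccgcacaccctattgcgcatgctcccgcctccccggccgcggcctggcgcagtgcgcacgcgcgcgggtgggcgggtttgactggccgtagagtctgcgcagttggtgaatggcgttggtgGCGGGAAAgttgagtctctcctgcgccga
FANCA, chr16:89816598-89816897, minus strand: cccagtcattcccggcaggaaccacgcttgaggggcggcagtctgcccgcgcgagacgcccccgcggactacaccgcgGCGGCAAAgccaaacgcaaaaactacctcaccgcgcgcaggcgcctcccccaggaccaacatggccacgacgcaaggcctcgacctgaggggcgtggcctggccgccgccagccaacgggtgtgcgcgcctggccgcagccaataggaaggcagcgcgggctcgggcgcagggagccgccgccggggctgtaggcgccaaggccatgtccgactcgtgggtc
MSH6, chr2:47782895-47783194, plus strand: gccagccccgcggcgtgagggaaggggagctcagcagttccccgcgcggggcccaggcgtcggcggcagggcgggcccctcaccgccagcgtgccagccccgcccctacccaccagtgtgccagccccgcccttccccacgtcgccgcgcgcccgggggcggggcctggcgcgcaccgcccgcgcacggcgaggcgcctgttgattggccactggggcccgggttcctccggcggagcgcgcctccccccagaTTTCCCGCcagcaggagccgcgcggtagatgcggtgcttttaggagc
RAD51C, chr17:58692323-58692622, plus strand: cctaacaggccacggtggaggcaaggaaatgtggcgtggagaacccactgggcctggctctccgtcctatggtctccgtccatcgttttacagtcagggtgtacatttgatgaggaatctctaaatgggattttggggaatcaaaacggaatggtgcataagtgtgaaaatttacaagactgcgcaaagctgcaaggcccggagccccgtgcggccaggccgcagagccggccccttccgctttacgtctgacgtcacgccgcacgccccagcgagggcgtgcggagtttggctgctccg
BRCA2, chr13:32315258-32315557, plus strand: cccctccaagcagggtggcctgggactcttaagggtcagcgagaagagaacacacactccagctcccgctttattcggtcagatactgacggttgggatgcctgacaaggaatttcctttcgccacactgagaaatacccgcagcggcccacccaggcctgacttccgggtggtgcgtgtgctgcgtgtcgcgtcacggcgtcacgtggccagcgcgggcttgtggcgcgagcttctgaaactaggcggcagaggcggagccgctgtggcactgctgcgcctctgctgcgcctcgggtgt

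Promoter windows were at hand for 50 of the 55 genes, with 73 start sites in all. The E2F strings were found in 15.1% of these 73 windows, against 4.86% of the 14157 windows of coding genes that passed the filter and 3.31% of all 35116 windows. They fell in 10 genes, XRCC2, RMI1, FANCA, FANCC, FANCD2, XRCC6, MSH3, MSH6, PMS2 and XPC. Of the genes lower in PRMT5-depleted cells with both treatments, 4 of 11 with a window held one, as did 1 of the 4 that were higher with both treatments (XPC). Of the genes lower in HP1γ-depleted cells with both treatments, 3 of 7 held one (FANCA, XRCC6 and MSH6), and 0 of the 2 that were higher. Of the 9 that passed the test in no depletion, 1 held one (PMS2). The NF-Y letters CCAAT were found in 39.7% of the repair windows against 34.9% of those of coding genes tested. The cell cycle element (TTTGAA or TTCGAA) stood at 8.22% against 12%, the NRF1 core GCATGCGC at 6.85% against 4.65%, and the short GR recognition string AGAACA at 11% against 9.49%, each on both strands. A match in a window is a description of its letters and not a measured binding site, and no E2F match overlapped a CCAAT match.

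Depletion of PRMT5 changed more of the repair genes than depletion of HP1γ did, as it did over all genes. With Eth, decreases outnumbered increases in both depletions. With Dex they did so clearly for HP1γ only, while the calls for PRMT5 were more evenly split. The tests compared each depletion with siNS under the same treatment, and a gene was called at an edgeR adjusted p under 0.05 over all 15298 genes, a positive log2 fold change being a higher level in depleted cells. With Eth, PRMT5 depletion changed 27 of 55 genes (49.1%), where 42.1% of all genes tested were called. Of these, 8 were higher and 19 lower, beside 20.6% and 21.6% of all genes. With Dex, 29 of 55 (52.7%) were called beside 42.4% of all genes, 13 higher and 16 lower beside 20.6% and 21.9%. HP1γ depletion with Eth changed 17 of 55 (30.9%) beside 31.8% of all genes, 4 higher and 13 lower beside 16.5% and 15.2%. With Dex it changed 16 of 55 (29.1%) beside 24%, 3 higher and 13 lower beside 11.7% and 12.3%. The shares for HP1γ were close to the background and those for PRMT5 somewhat above it, and whether the list differs from other genes was not tested. The same shares of all genes apply to the counts by class given below, and no class was tested as a set. Scaling by library size alone gave 6 higher and 10 lower for HP1γ with Dex, and 5 higher and 9 lower with Eth, so this split depended on the scaling. The median log2 fold change of the list was -0.041 for PRMT5 and -0.10 for HP1γ with Eth, and -0.027 and -0.011 with Dex, where that of all genes lay within 0.013 of 0.

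**Figure D1:**
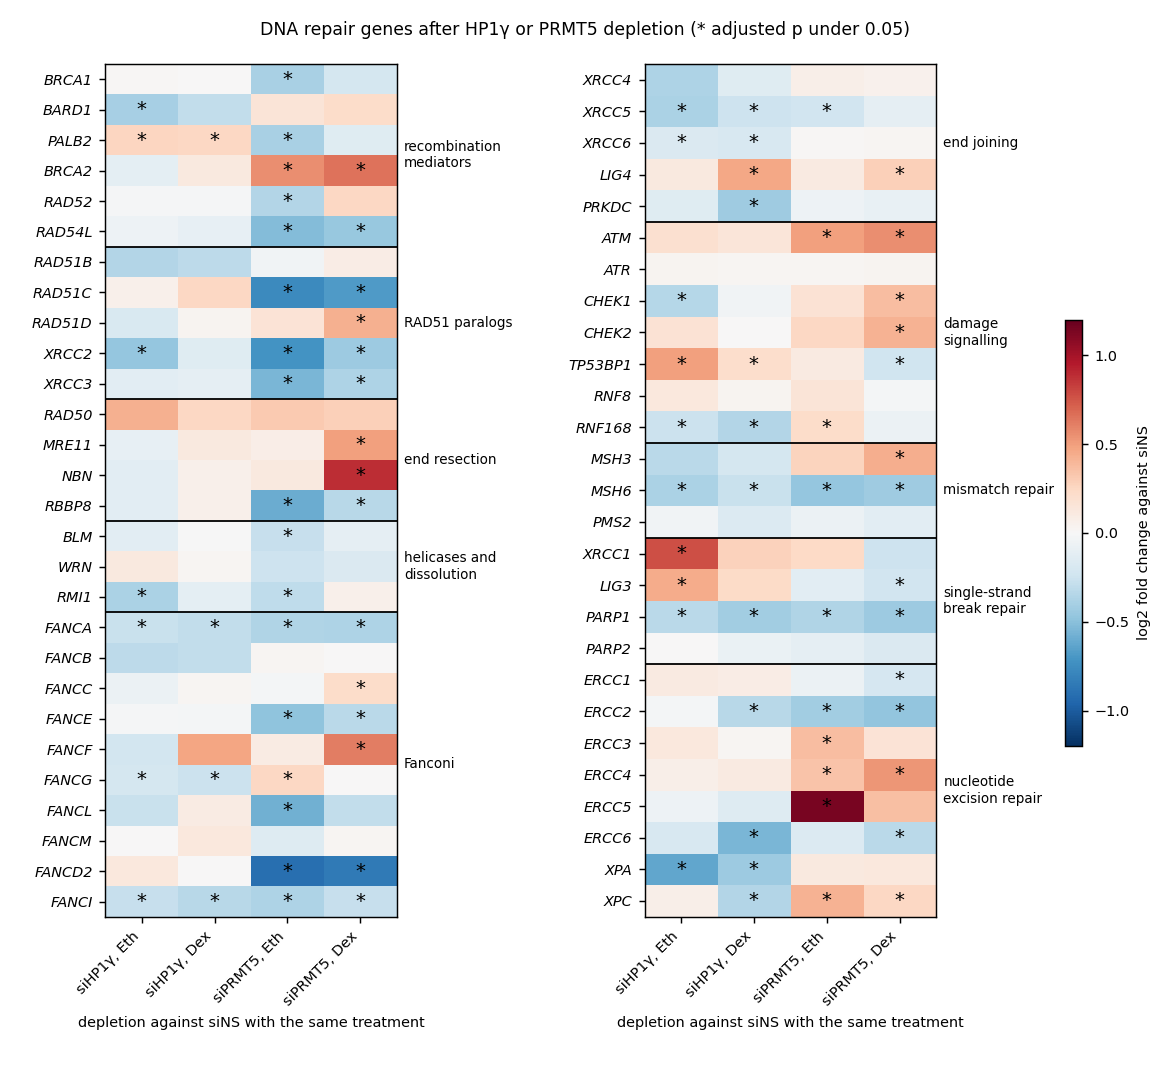
Log2 fold change of each of the 55 repair genes (rows, grouped by class) in HP1γ- or PRMT5-depleted cells against siNS cells with the same treatment (columns, n = 3 libraries a group), red for higher and blue for lower, with an asterisk at an edgeR adjusted p under 0.05. FANCA, FANCI, MSH6 and PARP1 are blue with an asterisk in all 4 columns, FANCD2 and RAD51C in the PRMT5 columns, and XPA in the HP1γ columns.

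Across treatments, 12 of the 55 genes were lower in PRMT5-depleted cells with both Eth and Dex (RAD54L, RAD51C, XRCC2, XRCC3, RBBP8, FANCA, FANCE, FANCD2, FANCI, MSH6, PARP1 and ERCC2), where 15.2% of all genes were, and 4 of the 55 were higher with both (BRCA2, ATM, ERCC4 and XPC) beside 12.9% of all genes. In HP1γ-depleted cells 9 were lower with both (FANCA, FANCG, FANCI, XRCC5, XRCC6, RNF168, MSH6, PARP1 and XPA) beside 7.97% of all genes, and 2 higher with both (PALB2 and TP53BP1) beside 7.05%. FANCA, FANCI, MSH6 and PARP1 were lower in all 4 comparisons, as were 2.16% of all genes. The HP1γ and PRMT5 comparisons share the siNS libraries, so these counts are not independent of each other. RAD51B, RAD50, WRN, FANCB, FANCM, XRCC4, ATR, RNF8, PMS2 and PARP2 were called in none of the 4, where 30.7% of all genes were called in none. When each of the 18 libraries was left out in turn, 20 of the 27 calls for PRMT5 with Eth and 17 of the 29 with Dex passed in every fit, as did 10 of 17 and 11 of 16 for HP1γ.

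Among the recombination mediators, PRMT5 depletion lowered 4 of the 6 genes with Eth and raised BRCA2 with both treatments. Of all genes, 21.6% were lower with Eth and 12.9% higher with both. BRCA2 loads the recombinase on single-stranded DNA, PALB2 ties it to BRCA1, and BRCA1 with BARD1 forms a ubiquitin ligase that promotes recombination. BRCA2 (chr13:32315086-32400268, hg38, plus strand, 27 exons) read 84.3, 70.1 and 69.2 CPM in the 3 siNS Eth libraries and 91.3, 129.8 and 107 in siPRMT5 Eth. With Dex it read 60.3, 87.4 and 78.8 in siNS and 88.7, 157 and 109.5 in siPRMT5, so that in both treatments every PRMT5-depleted library lay above every control library, with replicate 2 the highest. The log2 fold changes, each with its standard error (SE), were 0.55 ± 0.178 (SE, adjusted p = 0.0142) with Eth and 0.66 ± 0.176 (SE, adjusted p = 0.00384) with Dex, while HP1γ depletion gave -0.11 ± 0.181 (SE, adjusted p = 0.673) and 0.11 ± 0.178 (SE, adjusted p = 0.689), neither past the threshold. The BRCA2 call with Dex was lost without siPRMT5 Dex replicate 2 (0.40), and that with Eth without siNS Eth replicates 2 or 3 or siPRMT5 Eth replicate 2 (0.41 to 0.51 over these 3 fits).

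BRCA1 moved the other way with Eth. It read 63.4, 59.7 and 47.3 CPM in siNS Eth and 39.5, 48.6 and 42.0 in siPRMT5 Eth, which overlap, with a log2 fold change of -0.39 ± 0.119 (SE, adjusted p = 0.00963) that was lost without siNS Eth replicate 1 (-0.31) or siPRMT5 Eth replicate 1 (-0.33). With Dex, PRMT5 depletion gave -0.21 ± 0.116 (SE, adjusted p = 0.139), and HP1γ depletion gave 0.013 ± 0.115 (SE, adjusted p = 0.949) with Eth and 0.0082 ± 0.114 (SE, adjusted p = 0.967) with Dex, so no change of BRCA1 was detected there. PALB2 fell in PRMT5-depleted cells with Eth, -0.39 ± 0.0838 (SE, adjusted p = 0.000532), and was not called there with Dex (-0.15). It rose in HP1γ-depleted cells, 0.26 ± 0.0807 (SE, adjusted p = 0.0146) with Eth and 0.25 ± 0.0792 (SE, adjusted p = 0.0229) with Dex. The PALB2 increases were lost without siNS Eth replicates 1 or 3 or siHP1γ Eth replicates 1 or 3 (0.21 to 0.24 over these 4 fits) for Eth and without siNS Dex replicates 1 or 3 or siHP1γ Dex replicates 1 or 2 (0.21 to 0.23 over these 4 fits) for Dex. RAD54L, a translocase that drives strand exchange, fell with PRMT5 depletion, -0.52 ± 0.118 (SE, adjusted p = 0.000787) with Eth and -0.45 ± 0.113 (SE, adjusted p = 0.00221) with Dex. RAD52, which anneals single strands, gave -0.35 (adjusted p = 0.0294) with Eth, lost without siNS Eth replicate 1 or siPRMT5 Eth replicates 1 or 2 (-0.34 to -0.27 over these 3 fits). With Dex its value had the other sign, 0.25 (adjusted p = 0.0916), and did not pass the threshold. The RAD52 difference of Dex responses between PRMT5-depleted and siNS cells, 0.60 (adjusted p = 0.0514), missed the threshold here and passed it with DESeq2 on all libraries. BARD1 was lower in HP1γ-depleted cells with Eth, -0.40 ± 0.121 (SE, adjusted p = 0.0140), lost without siNS Eth replicate 1 (-0.26) or siHP1γ Eth replicate 2 (-0.36). The class counted 1 higher and 4 lower of 6 for PRMT5 with Eth at a median of -0.37, but 1 higher and 1 lower with Dex at 0.035. For HP1γ it counted 1 higher and 1 lower with Eth and 1 higher and 0 lower with Dex, and the Eth median of -0.038 changed sign when libraries were scaled by size alone (0.019).

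Of the 5 recombinase paralogs, small proteins that assemble in complexes and help the recombinase filament form, 3 fell after PRMT5 depletion with both treatments, beside 15.2% of all genes. RAD51C (chr17:58692573-58735611, hg38, plus strand, 9 exons), shared by both paralog complexes, read 39.7, 30.3 and 38.4 CPM in siNS Eth and 23.5, 17.96 and 22.1 in siPRMT5 Eth. With Dex it read 31.4, 31.2 and 31.0 in siNS and 19.5, 21.5 and 17.3 in siPRMT5, and in siHP1γ it read 36.8, 39.7 and 36.6 with Eth and 39.4, 35.1 and 36.4 with Dex. All 6 PRMT5-depleted libraries were thus below all 12 others. The log2 fold changes were -0.76 ± 0.110 (SE, adjusted p = 3.55e-06) and -0.68 ± 0.110 (SE, adjusted p = 1.92e-05) for PRMT5, and 0.061 (adjusted p = 0.692) and 0.25 (adjusted p = 0.0838) for HP1γ. XRCC2 (chr7:152644776-152676193, hg38, minus strand, 3 exons) read 33.6, 28.2 and 27.4 CPM in siNS Eth, 22.2, 20.6 and 21.9 in siHP1γ Eth and 17.7, 19.1 and 17.4 in siPRMT5 Eth. It was the one paralog called in both depletions with Eth, with -0.72 ± 0.110 (SE, adjusted p = 8.76e-06) for PRMT5 and -0.46 ± 0.107 (SE, adjusted p = 0.00153) for HP1γ. With Dex, PRMT5 gave -0.43 (adjusted p = 0.00198) and HP1γ -0.15 (adjusted p = 0.337), the second not past the threshold. XRCC3, the partner of RAD51C in the smaller complex, fell with PRMT5 depletion, -0.55 (adjusted p = 0.000403) with Eth and -0.37 (adjusted p = 0.00894) with Dex, while 76.7% of its exon bases overlapped exons of KLC1 on the opposite strand. RAD51D rose with PRMT5 depletion and Dex, 0.42 (adjusted p = 0.00266). With Eth it gave 0.16 (adjusted p = 0.268), and the difference of its Dex responses did not pass the threshold, 0.26 (adjusted p = 0.390). The class counted 0 higher and 3 lower of 5 for PRMT5 with Eth, with a median of -0.55, and 1 higher and 3 lower with Dex, with a median of -0.37. For HP1γ it counted 0 higher and 1 lower with Eth and 0 with Dex, where 1 paralog reached an unadjusted p under 0.05 beside 35.6% of all genes.

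**Figure D2:**
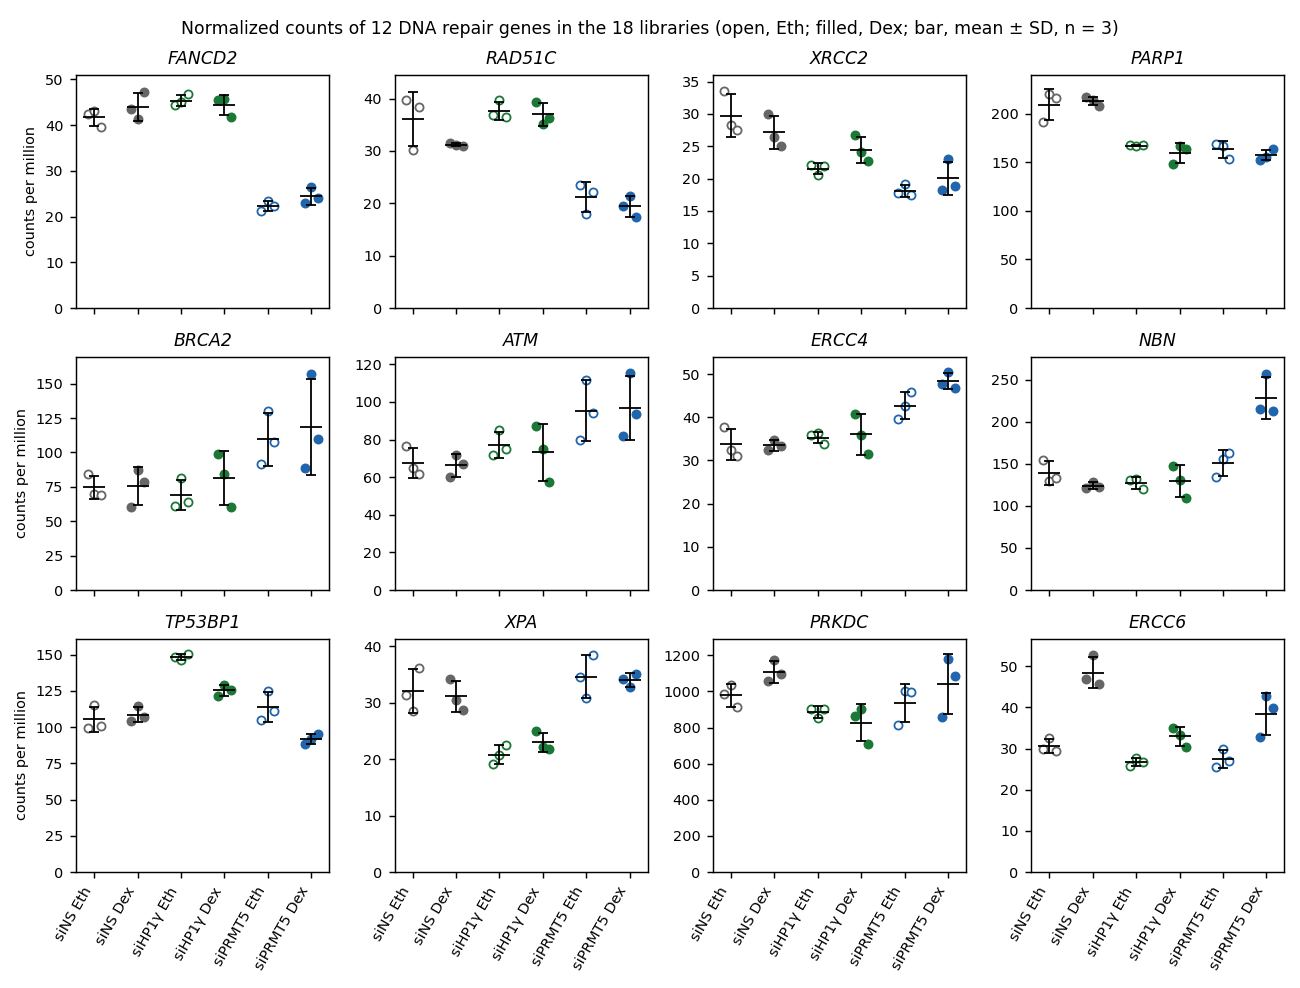
Level of 12 repair genes in each of the 18 libraries, in CPM from 0 (vertical axis) for the 6 conditions (horizontal axis), with open points for Eth, filled points for Dex and bars for the mean ± SD of 3 libraries. FANCD2 and RAD51C are lowest in the 6 siPRMT5 libraries, XPA in the 6 siHP1γ libraries, and NBN is highest in siPRMT5 Dex.

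End resection held the gene with the largest increase with Dex. NBN, the sensor subunit of the MRE11-RAD50-NBN complex that binds broken ends and recruits ATM, read 121, 129 and 122 CPM in siNS Dex and 215, 257 and 213 in siPRMT5 Dex, with no overlap. With Eth it read 155, 129 and 133 in siNS and 134, 156 and 163 in siPRMT5, which overlap. The log2 fold change was 0.88 ± 0.0973 (SE, adjusted p = 5.34e-08) with Dex and 0.12 (adjusted p = 0.361) with Eth, the latter not past the threshold. MRE11, the nuclease of the complex, was also higher with Dex, 0.49 (adjusted p = 9.52e-05), and read 0.081 (adjusted p = 0.515) with Eth. RAD50, which tethers the ends, was called in no depletion, with 76.9% of its exon bases under exons of 2 other genes of the same strand combined (TH2LCRR and ENSG00000283782). RBBP8 (CtIP), which starts resection together with that complex, fell in PRMT5-depleted cells, from 145, 126 and 143 CPM in siNS Eth to 84.4, 100.5 and 88.7 in siPRMT5 Eth. Its log2 fold changes were -0.60 ± 0.0900 (SE, adjusted p = 6.33e-06) with Eth and -0.33 (adjusted p = 0.00373) with Dex. HP1γ depletion called 0 of the 4 genes in either treatment, and none of the 4 reached an unadjusted p under 0.05 (beside 35.6% of all genes with Dex and 40.9% with Eth). For PRMT5 the class counted 0 higher and 1 lower with Eth and 2 higher and 1 lower with Dex, at medians of 0.10 and 0.39.

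The next class holds helicases, and a partner protein, that act on joined recombination intermediates. The partner of BLM, RMI1, fell with Eth in both depletions, -0.38 ± 0.104 (SE, adjusted p = 0.00653) for HP1γ and -0.30 (adjusted p = 0.0214) for PRMT5. BLM fell with PRMT5 depletion and Eth, -0.28 (adjusted p = 0.0284). The PRMT5 calls were fragile, lost for RMI1 without siNS Eth replicate 1 or siPRMT5 Eth replicates 1 or 2 (-0.30 to -0.23 over these 3 fits) and for BLM without siNS Eth replicates 1 or 2 or siPRMT5 Eth replicates 1 or 3 (-0.27 to -0.23 over these 4 fits). WRN gave -0.25 (adjusted p = 0.0516) and -0.18 (adjusted p = 0.157) for PRMT5 and was called in none of the 4 comparisons with siNS. With Dex, 0 of the 3 genes were called in either depletion, with 0 at an unadjusted p under 0.05, beside 35.6% of all genes for HP1γ and 49.7% for PRMT5.

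In the Fanconi class FANCD2 showed the largest decrease of the 55 genes after PRMT5 depletion. FANCD2 and FANCI form the clamp that the Fanconi core complex (FANCA, FANCB, FANCC, FANCE, FANCF, FANCG, FANCL and FANCM) marks with ubiquitin at a crosslink. FANCD2 (chr3:10026370-10101932, hg38, plus strand, 44 exons) read 42.5, 43.0 and 39.6 CPM in siNS Eth, 44.4, 44.98 and 46.7 in siHP1γ Eth and 21.1, 23.4 and 22.3 in siPRMT5 Eth. With Dex it read 43.5, 41.3 and 47.3 in siNS, 45.4, 45.8 and 41.8 in siHP1γ and 22.9, 26.5 and 24.0 in siPRMT5. Every one of the 6 PRMT5-depleted libraries lay below the lowest of the 12 others. Its log2 fold changes were -0.91 ± 0.0872 (SE, adjusted p = 5.73e-09) with Eth and -0.85 ± 0.0843 (SE, adjusted p = 9.34e-09) with Dex for PRMT5, against 0.12 ± 0.0807 (SE, adjusted p = 0.263) and 0.0079 ± 0.0795 (SE, adjusted p = 0.954) for HP1γ. The symbol has 1 pseudogene symbol in the files, with which reads may be shared. The same limit holds for MRE11 and RBBP8 (1 each), PARP1 (2), XRCC6 and CHEK2 (5 each) and PMS2 (10).

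FANCA and FANCI fell in both depletions. FANCA (chr16:89726683-89816977, hg38, minus strand, 43 exons) gave -0.37 (adjusted p = 0.00148) and -0.37 (adjusted p = 0.00113) for PRMT5 and -0.27 (adjusted p = 0.0193) and -0.30 (adjusted p = 0.0123) for HP1γ, with Eth and Dex. FANCI gave -0.37 (adjusted p = 0.000591) and -0.27 (adjusted p = 0.00691) for PRMT5, and -0.28 (adjusted p = 0.00830) and -0.33 (adjusted p = 0.00311) for HP1γ. The HP1γ calls of FANCA were lost without siNS Eth replicate 2 (-0.21) or siHP1γ Eth replicate 2 (-0.22) for Eth and without siNS Dex replicate 3 (-0.27) or siHP1γ Dex replicate 1 (-0.24) for Dex, and the FANCI call for PRMT5 with Dex without siPRMT5 Dex replicate 1 (-0.20). FANCL, the ubiquitin ligase of the core, fell with PRMT5 depletion and Eth, -0.58 ± 0.144 (SE, adjusted p = 0.00213), and was not called with Dex. FANCE, which links the core to FANCD2, fell with PRMT5 depletion, -0.48 (adjusted p = 0.000660) with Eth and -0.33 (adjusted p = 0.0110) with Dex, the second lost without siNS Dex replicate 1 (-0.23) or siPRMT5 Dex replicate 3 (-0.26). FANCG moved in opposite directions with Eth, 0.25 (adjusted p = 0.00966) for PRMT5 and -0.21 (adjusted p = 0.0368) for HP1γ, the second lost without siNS Eth replicates 1, 2 or 3 or siHP1γ Eth replicates 1 or 2 (-0.24 to -0.19 over these 5 fits). With Dex the HP1γ value of FANCG was -0.26 (adjusted p = 0.0162), lost without siHP1γ Dex replicate 1 (-0.21). FANCF, at the lowest counts of the list, was higher with PRMT5 depletion and Dex, 0.61 ± 0.231 (SE, adjusted p = 0.0344), and FANCC likewise, 0.22 (adjusted p = 0.0442). The FANCF call was lost without siNS Dex replicates 2 or 3 or siPRMT5 Dex replicates 2 or 3 (0.49 to 0.64 over these 4 fits), and the FANCC call without siNS Eth replicate 3, siNS Dex replicates 1 or 3, siHP1γ Eth replicate 2 or siPRMT5 Dex replicates 1, 2 or 3 (0.19 to 0.24 over these 7 fits). The class counted 1 higher and 5 lower of 10 with Eth and 2 higher and 4 lower with Dex for PRMT5, at medians of -0.26 and -0.14. For HP1γ it counted 0 higher and 3 lower in each treatment, at medians of -0.22 with Eth and -0.0075 with Dex, the latter changing sign with scaling by library size alone (0.074).

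Of the 5 end joining genes, 2 were lower after HP1γ depletion with Eth and 3 with Dex, beside 15.2% and 12.3% of all genes. PRMT5 depletion called 1 of the 5 in each treatment, beside 42.1% (Eth) and 42.4% (Dex) of all genes. XRCC5 and XRCC6 encode the Ku heterodimer and PRKDC the catalytic subunit of DNA-PK that Ku recruits. XRCC5 fell with HP1γ depletion, -0.38 (adjusted p = 1.93e-05) with Eth and -0.25 (adjusted p = 0.00234) with Dex. XRCC6 fell as well, -0.17 (adjusted p = 0.0253) and -0.19 (adjusted p = 0.0174), and its calls were lost without siNS Eth replicates 2 or 3 or siHP1γ Eth replicate 1 (-0.17 to -0.16 over these 3 fits) for Eth and without siNS Dex replicate 2 (-0.18) or siHP1γ Dex replicate 1 (-0.16) for Dex. PRKDC read 1057, 1176 and 1096 CPM in siNS Dex and 863, 905 and 711 in siHP1γ Dex, with every depleted library below every control library. With Eth it read 986, 1035 and 913 in siNS and 904, 851 and 904 in siHP1γ. The log2 fold changes for HP1γ were -0.42 ± 0.0981 (SE, adjusted p = 0.00225) with Dex and -0.14 ± 0.0980 (SE, adjusted p = 0.291) with Eth, and for PRMT5 -0.091 ± 0.0978 (SE, adjusted p = 0.490) and -0.060 ± 0.0980 (SE, adjusted p = 0.660). LIG4, the ligase of the pathway, moved against these and rose with Dex. It read 45.9, 59.7 and 51.4 CPM in siNS Dex, 79.9, 69.1 and 67.0 in siHP1γ Dex and 56.3, 73.8 and 61.0 in siPRMT5 Dex, at log2 fold changes of 0.47 ± 0.102 (SE, adjusted p = 0.00135) for HP1γ and 0.29 (adjusted p = 0.0244) for PRMT5, where the groups overlapped and the call was lost without siNS Dex replicates 1 or 3 or siPRMT5 Dex replicate 2 (0.17 to 0.28 over these 3 fits). With PRMT5 depletion and Eth the class held 1 call, a lower XRCC5, -0.23 (adjusted p = 0.00211). The class medians were -0.17 and -0.19 for HP1γ with Eth and Dex, and 0.012 and 0.027 for PRMT5.

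Of the 7 damage signalling genes, PRMT5 depletion called 2 higher and 0 lower with Eth, where all 7 had positive log2 fold changes at a median of 0.17, and 3 higher and 1 lower with Dex at a median of 0.030. HP1γ depletion called 1 higher and 2 lower with Eth at a median of 0.13 and 1 higher and 1 lower with Dex at 0.027. Of all genes, PRMT5 depletion called 42.1% (Eth) and 42.4% (Dex), and HP1γ depletion 31.8% and 24%. The summed level of the class was 559 to 619 CPM in siPRMT5 Eth, above the 500.5 to 546 in siNS Eth with no overlap. With Dex the sums of 523 to 597 in siPRMT5 and 499 to 533 in siNS overlapped. ATM, the kinase that answers double-strand breaks, was higher in PRMT5-depleted cells, and ATR, which answers single-stranded DNA at stalled forks, passed the threshold in none of the 4 comparisons. ATM (chr11:108223044-108369102, hg38, plus strand, 63 exons) read 76.6, 64.9 and 61.5 CPM in siNS Eth and 79.6, 112 and 94.4 in siPRMT5 Eth, and 59.98, 71.8 and 66.9 in siNS Dex against 81.8, 115 and 93.7 in siPRMT5 Dex. In each treatment the lowest PRMT5-depleted library lay above the highest control library. Its log2 fold changes were 0.49 ± 0.137 (SE, adjusted p = 0.00501) with Eth and 0.55 ± 0.136 (SE, adjusted p = 0.00174) with Dex, the first lost without siPRMT5 Eth replicate 2 (0.36), while HP1γ depletion gave 0.19 ± 0.138 (SE, adjusted p = 0.307) and 0.15 ± 0.137 (SE, adjusted p = 0.472). ATR gave 0.026 ± 0.105 (SE, adjusted p = 0.870) and 0.030 ± 0.103 (SE, adjusted p = 0.842) for PRMT5 and 0.035 ± 0.104 (SE, adjusted p = 0.836) and 0.027 ± 0.103 (SE, adjusted p = 0.882) for HP1γ. The checkpoint kinase genes CHEK1 and CHEK2, which act below ATR and ATM, rose with PRMT5 depletion and Dex, 0.37 (adjusted p = 0.00704) and 0.42 (adjusted p = 0.0125), and CHEK1 fell with HP1γ depletion and Eth, -0.34 (adjusted p = 0.0172). The CHEK2 call was lost without siNS Dex replicates 2 or 3 or siPRMT5 Dex replicate 2 (0.34 to 0.38 over these 3 fits) and the CHEK1 decrease without siNS Eth replicate 1 (-0.28) or siHP1γ Eth replicate 1 (-0.30).

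TP53BP1, which shields broken ends from resection, read 99.7, 115 and 101 CPM in siNS Eth, 149, 146 and 150.1 in siHP1γ Eth and 105, 125 and 111 in siPRMT5 Eth. With Dex the values were 104, 115 and 107 in siNS, 121, 129 and 126 in siHP1γ and 88.3, 91.8 and 95.4 in siPRMT5, so that HP1γ-depleted cells lay above and PRMT5-depleted cells below their controls. The log2 fold changes were 0.49 ± 0.0734 (SE, adjusted p = 1.21e-05) with Eth and 0.21 ± 0.0732 (SE, adjusted p = 0.0407) with Dex for HP1γ, against 0.11 (adjusted p = 0.240) and -0.24 (adjusted p = 0.01005) for PRMT5. Only the HP1γ call with Eth held in all 18 fits without 1 library. The HP1γ call with Dex was lost without siNS Eth replicate 3, siNS Dex replicates 1 or 3, siHP1γ Eth replicates 2 or 3 or siHP1γ Dex replicates 2 or 3 (0.18 to 0.21 over these 7 fits), and the PRMT5 call with Dex without siNS Dex replicate 2 (-0.20) or siPRMT5 Dex replicate 1 (-0.21). RNF168, the ubiquitin ligase that opens the way for TP53BP1 at breaks, was lower after HP1γ depletion, -0.26 (adjusted p = 0.0222) and -0.35 (adjusted p = 0.00319), and higher after PRMT5 depletion with Eth, 0.22 (adjusted p = 0.0365). RNF8, the ligase that acts before RNF168, was called nowhere. The Eth calls of RNF168 were lost without siNS Eth replicate 1 (-0.16) or siHP1γ Eth replicate 2 (-0.21) for HP1γ and without siNS Eth replicates 2 or 3 or siPRMT5 Eth replicates 2 or 3 (0.16 to 0.22 over these 4 fits) for PRMT5.

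In mismatch repair the partners of MutS behaved differently. MSH6 (chr2:47695530-47810063, hg38, plus strand, 10 exons), which recognises single mispairs, fell in all 4 comparisons, at -0.47 (adjusted p = 2.97e-06) and -0.43 (adjusted p = 9.81e-06) for PRMT5 and at -0.38 ± 0.0661 (SE, adjusted p = 9.47e-05) and -0.26 (adjusted p = 0.00414) for HP1γ, with Eth and Dex. It read 196, 189 and 183 CPM in siNS Eth, 143, 144 and 149.6 in siHP1γ Eth and 128, 132 and 150.0 in siPRMT5 Eth, and neither depleted group overlapped the control. MSH3, which recognises larger loops, rose with PRMT5 depletion and Dex, 0.43 (adjusted p = 0.00604), and gave 0.27 (adjusted p = 0.0848) with Eth. PMS2, with 10 pseudogene symbols in the files, was called nowhere. The class medians were -0.067 and -0.13 for PRMT5 and -0.32 and -0.21 for HP1γ.

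PARP1, the sensor of single-strand breaks, fell in all 4 comparisons. PARP1 (chr1:226360210-226408154, hg38, minus strand, 23 exons) read 191, 219.9 and 217 CPM in siNS Eth, 167, 166 and 167 in siHP1γ Eth and 169, 167 and 153 in siPRMT5 Eth. With Dex it read 217, 214 and 208 in siNS, 148, 167 and 164 in siHP1γ and 153, 156 and 164 in siPRMT5. All 12 depleted libraries were below all 6 control libraries. The log2 fold changes were -0.32 ± 0.0676 (SE, adjusted p = 0.000595) and -0.42 ± 0.0674 (SE, adjusted p = 4.88e-05) for HP1γ and -0.36 ± 0.0679 (SE, adjusted p = 0.000120) and -0.44 ± 0.0676 (SE, adjusted p = 9.98e-06) for PRMT5, with Eth and Dex, and no library left out ended a call. The scaffold XRCC1 and its ligase LIG3 went the other way in HP1γ-depleted cells with Eth. XRCC1 read 17.1, 22.1 and 17.9 CPM in siNS Eth and 34.8, 32.5 and 30.4 in siHP1γ Eth, with no overlap. The log2 fold changes of XRCC1 and LIG3 were 0.77 ± 0.111 (SE, adjusted p = 8.53e-06) and 0.45 ± 0.0909 (SE, adjusted p = 0.000450). With Dex they gave 0.28 (adjusted p = 0.0591) and 0.23 (adjusted p = 0.0577), not past the threshold. With PRMT5 depletion and Dex LIG3 was lower, -0.23 (adjusted p = 0.0489), a call that was lost without any 1 library other than siHP1γ Eth replicate 2 or siPRMT5 Eth replicate 2 (-0.26 to -0.17 over these 16 fits). Exons of other genes overlapped 28.2% of the exon bases of XRCC1 and 30.5% of those of LIG3. PARP2, which also answers strand breaks, was called nowhere. The class medians were -0.12 and -0.24 for PRMT5 and 0.22 and 0.075 for HP1γ, so that the decrease of PARP1 was not shared by the class under HP1γ depletion.

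Of the 8 nucleotide excision repair genes, 4 were lower after HP1γ depletion with Dex, beside 12.3% of all genes, while PRMT5 depletion moved genes in both directions. XPA, which verifies the lesion and organises the incision complex, read 31.4, 28.5 and 36.1 CPM in siNS Eth and 19.2, 20.8 and 22.4 in siHP1γ Eth. With Dex it read 34.2, 30.4 and 28.7 in siNS and 24.95, 22.2 and 21.8 in siHP1γ. In siPRMT5 it read 34.6, 30.8 and 38.4 with Eth and 34.2, 32.7 and 35.1 with Dex. The 6 HP1γ-depleted libraries were below the 12 others. XPA gave -0.62 ± 0.107 (SE, adjusted p = 7.42e-05) and -0.43 ± 0.104 (SE, adjusted p = 0.00309) for HP1γ and 0.11 (adjusted p = 0.401) and 0.13 (adjusted p = 0.340) for PRMT5. XPC, which finds lesions across the genome, fell with HP1γ depletion and Dex, -0.36 ± 0.0813 (SE, adjusted p = 0.00207), and rose with PRMT5 depletion, 0.42 ± 0.0842 (SE, adjusted p = 0.000264) with Eth and 0.25 (adjusted p = 0.0133) with Dex, the last lost without siPRMT5 Dex replicate 3 (0.21).

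ERCC4, the nuclease that cuts 5′ of the lesion, rose with PRMT5 depletion, 0.34 (adjusted p = 0.00523) with Eth and 0.53 ± 0.0933 (SE, adjusted p = 4.98e-05) with Dex, and read 32.3, 34.8 and 33.5 CPM in siNS Dex against 47.7, 50.5 and 46.9 in siPRMT5 Dex. Of the TFIIH helicases, ERCC3 rose with PRMT5 depletion and Eth, 0.37 ± 0.0662 (SE, adjusted p = 5.88e-05), and was not called with Dex. ERCC2 fell with PRMT5 depletion, -0.42 (adjusted p = 0.000429) with Eth and -0.47 ± 0.0871 (SE, adjusted p = 8.80e-05) with Dex. ERCC2 also fell with HP1γ depletion and Dex, -0.34 (adjusted p = 0.00529). ERCC1, the partner of ERCC4, gave -0.21 (adjusted p = 0.0457) for PRMT5 with Dex, lost without any 1 library other than siNS Eth replicate 2, siHP1γ Dex replicates 1 or 3, siPRMT5 Eth replicates 1 or 3 or siPRMT5 Dex replicate 1 (-0.23 to -0.17 over these 12 fits). ERCC5, the nuclease on the 3′ side, had the largest log2 fold change of the 55 genes, 1.13 ± 0.192 (SE, adjusted p = 3.13e-05) for PRMT5 with Eth, from 3.75, 3.47 and 2.69 CPM to 7.19, 7.16 and 7.40. With Dex ERCC5 was not called for PRMT5. Its counts were among the lowest of the list, and 33.0% of its exon bases are shared with the readthrough gene BIVM-ERCC5 on the same strand. The class counted 4 higher and 1 lower of 8 with Eth and 2 higher and 3 lower with Dex for PRMT5, at medians of 0.23 and 0.14, against 0 higher and 1 lower with Eth, and 0 higher and 4 lower with Dex, for HP1γ at medians of 0.023 and -0.25.

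PRMT5- and HP1γ-depleted cells were then compared with each other, which does not use the siNS libraries for the difference itself. With Eth 31 of the 55 genes differed, where 48.4% of all genes did, 17 higher and 14 lower in PRMT5-depleted cells beside 23.4% and 25% of all genes. With Dex 31 differed beside 49.9%, 18 higher and 13 lower beside 24.4% and 25.5%. FANCD2 and RAD51C stood lowest, FANCD2 at -1.03 ± 0.0862 (SE, adjusted p = 3.42e-10) with Eth and -0.86 ± 0.0839 (SE, adjusted p = 4.94e-09) with Dex, and RAD51C at -0.83 ± 0.109 (SE, adjusted p = 7.50e-07) and -0.92 ± 0.108 (SE, adjusted p = 1.03e-07). XRCC1 gave -0.53 ± 0.110 (SE, adjusted p = 0.000292) and -0.53 ± 0.109 (SE, adjusted p = 0.000258), and LIG3 -0.58 ± 0.0920 (SE, adjusted p = 1.09e-05) and -0.46 ± 0.0907 (SE, adjusted p = 0.000145). These genes of single-strand break repair were thus lower in PRMT5- than in HP1γ-depleted cells in both treatments. PALB2 was lower with Eth, -0.65 ± 0.0826 (SE, adjusted p = 4.20e-07), and TP53BP1 with Dex, -0.45 ± 0.0738 (SE, adjusted p = 1.56e-05). On the other side stood MSH3 at 0.59 ± 0.127 (SE, adjusted p = 0.000408) and 0.64 ± 0.124 (SE, adjusted p = 0.000122), XPA at 0.73 ± 0.106 (SE, adjusted p = 2.99e-06) and 0.56 ± 0.103 (SE, adjusted p = 7.11e-05), and BRCA2 at 0.67 ± 0.178 (SE, adjusted p = 0.00317) and 0.54 ± 0.175 (SE, adjusted p = 0.0123).

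BARD1 and ERCC5 were further genes higher in PRMT5- than in HP1γ-depleted cells with Eth, 0.55 ± 0.120 (SE, adjusted p = 0.000538) and 1.19 ± 0.190 (SE, adjusted p = 1.15e-05), and XPC and NBN with Dex, 0.60 ± 0.0805 (SE, adjusted p = 7.78e-07) and 0.82 ± 0.0969 (SE, adjusted p = 1.14e-07). The BRCA2 difference with Dex was lost without siHP1γ Dex replicate 3 (0.38) or siPRMT5 Dex replicate 2 (0.28). ATM differed with Dex, 0.41 ± 0.134 (SE, adjusted p = 0.0142), lost without siHP1γ Dex replicate 3 (0.27) or siPRMT5 Dex replicate 2 (0.26), and gave 0.30 ± 0.135 (SE, adjusted p = 0.0697) with Eth. PRKDC differed with Dex, 0.33 ± 0.0980 (SE, adjusted p = 0.00626), lost without siPRMT5 Dex replicate 2 (0.24), and gave 0.081 ± 0.0981 (SE, adjusted p = 0.519) with Eth. BRCA1 was lower with Eth, -0.40 ± 0.118 (SE, adjusted p = 0.00633), and gave -0.22 ± 0.115 (SE, adjusted p = 0.110) with Dex. ATR gave -0.0084 ± 0.104 (SE, adjusted p = 0.955) and 0.0034 ± 0.103 (SE, adjusted p = 0.981), and PARP1 -0.035 ± 0.0680 (SE, adjusted p = 0.703) and -0.020 ± 0.0679 (SE, adjusted p = 0.833), so that no difference between the depletions was detected for either.

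**Figure D3:**
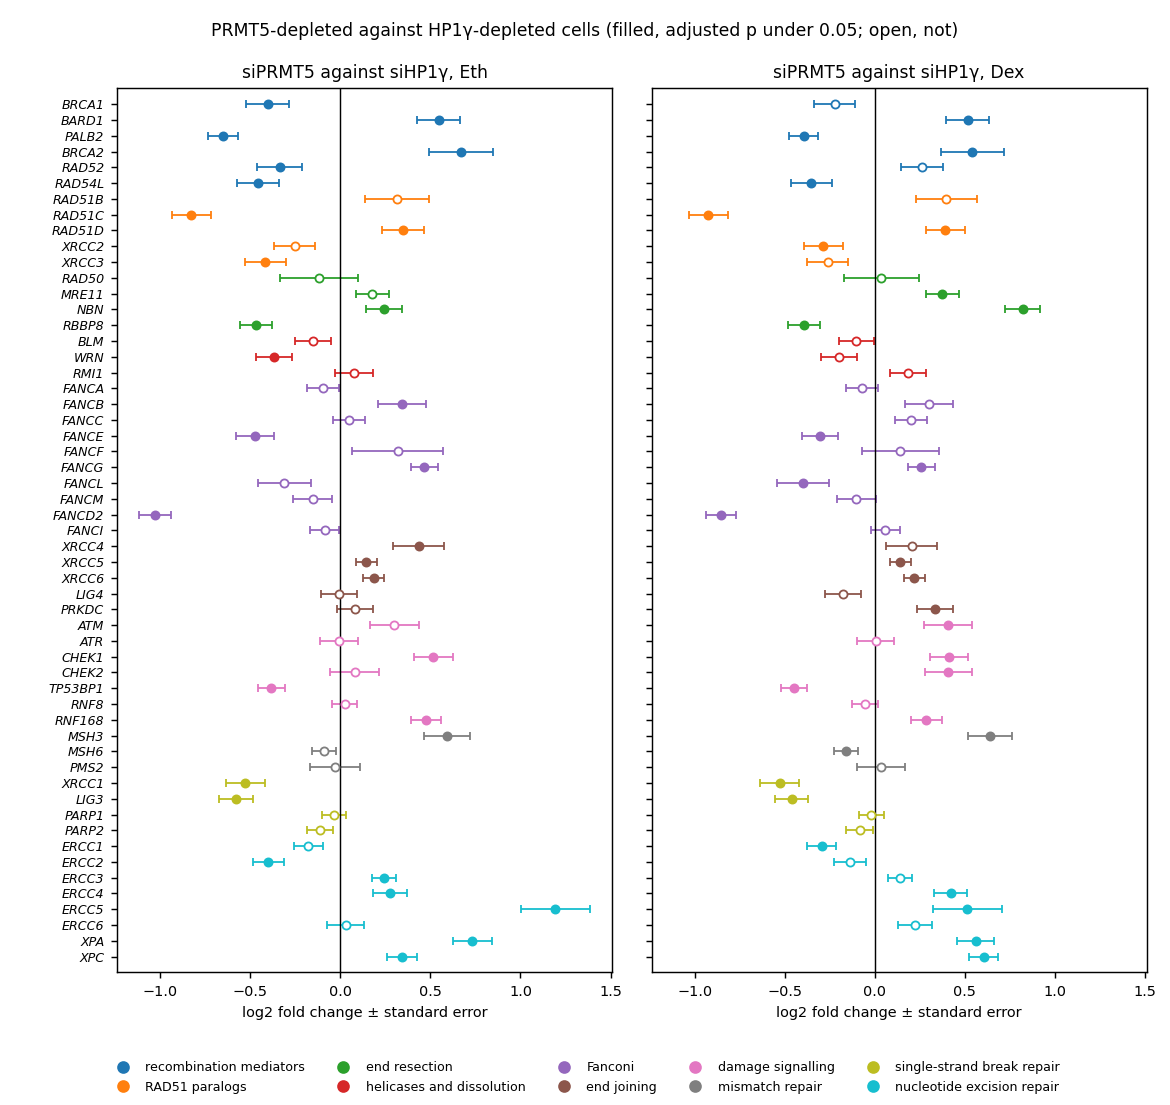
Log2 fold change ± standard error of the 55 repair genes in PRMT5-depleted against HP1γ-depleted cells (n = 3 libraries a group), with Eth on the left and Dex on the right, coloured by class and filled at an edgeR adjusted p under 0.05. FANCD2 and RAD51C lie farthest left in both panels, ERCC5 farthest right with Eth and NBN farthest right with Dex.

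Dexamethasone itself changed few repair genes, as it changed few of all genes tested. In siNS cells 1 of 55 genes passed the thresholds for a Dex response (adjusted p under 0.01 and at least 1.5-fold), beside 2.71% of all genes. It was ERCC6, the translocase that couples excision repair to stalled transcription (chr10:49454168-49539538, hg38, minus strand, 21 exons). ERCC6 read 29.9, 32.6 and 29.3 CPM with Eth and 46.9, 52.6 and 45.6 with Dex in siNS cells, with no overlap, a log2 fold change of 0.66 ± 0.0970 (SE, adjusted p = 2.33e-05). This was a 1.58-fold increase, just above the limit. In HP1γ-depleted cells the response was 0.30 (adjusted p = 0.0834), and in PRMT5-depleted cells 0.49 (adjusted p = 0.000765). The differences between these responses and that of siNS cells were -0.36 (adjusted p = 0.191) for HP1γ and -0.17 (adjusted p = 0.562) for PRMT5, so that a changed response of ERCC6 was not detected. With Dex, ERCC6 was lower in HP1γ-depleted cells than in siNS cells, -0.55 ± 0.0950 (SE, adjusted p = 0.000108), and in PRMT5-depleted cells, -0.33 (adjusted p = 0.00650), the second lost without siNS Dex replicate 2 (-0.26) or siPRMT5 Dex replicate 1 (-0.22).

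In HP1γ-depleted cells 0 of the 55 genes passed the thresholds for a Dex response by edgeR, beside 1.67% of all genes, and 0 by DESeq2. At an unadjusted p under 0.05 there were 7, beside 18% of all genes. In PRMT5-depleted cells 1 gene passed, beside 5.44% of all genes. This was NBN, which read 134, 156 and 163 CPM with Eth and 215, 257 and 213 with Dex, a log2 fold change of 0.60 ± 0.0968 (SE, adjusted p = 4.54e-05). In siNS cells NBN read 155, 129 and 133 with Eth and 121, 129 and 122 with Dex, a log2 fold change of -0.17 (adjusted p = 0.330). The difference between these responses was 0.77 ± 0.138 (SE, adjusted p = 0.00184), the 1 of 55 genes past the threshold beside 3.8% of all genes, with 12 at an unadjusted p under 0.05 beside 19%. The NBN response in PRMT5-depleted cells fell under 1.5-fold without siPRMT5 Eth replicate 1 (0.52) or siPRMT5 Dex replicate 2 (0.51), whereas the difference of the responses passed in all 18 fits without 1 library. The Dex responses called in PRMT5-depleted cells became 0 without siPRMT5 Eth replicate 1, 2 without siPRMT5 Eth replicate 3 and 3 without siPRMT5 Dex replicate 1, with RAD52 beside NBN in both of the latter and ERCC6 in the last, and it was RAD52 alone without siPRMT5 Dex replicate 2. The differences of the responses called became 4 without siNS Eth replicate 2 or siHP1γ Dex replicate 1, 3 without siHP1γ Dex replicate 3, and 2 without siHP1γ Dex replicate 2, siPRMT5 Eth replicate 1 or siPRMT5 Dex replicate 3. No gene differed in its Dex response between HP1γ-depleted and siNS cells by edgeR, beside 0.399% of all genes, with 7 at an unadjusted p under 0.05 beside 17.2%, and 1 (XPC) by DESeq2.

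Repair genes outside the list gave the wider pathway. Of 98 further genes of the same classes, 89 passed the filter. With PRMT5 depletion 6 of these were higher and 29 lower with Eth, beside 20.6% and 21.6% of all genes. With Dex 8 were higher and 26 lower, beside 20.6% and 21.9%. Both directions together made up 39.3% and 38.2% of the 89, below the 42.1% and 42.4% of all genes. With HP1γ depletion 7 were higher and 24 lower with Eth, beside 16.5% and 15.2% of all genes. With Dex 6 were higher and 16 lower, beside 11.7% and 12.3%. Together these were 34.8% and 24.7% beside 31.8% and 24% of all genes. In each comparison decreases took a larger share, and increases a smaller one, than over all genes, which was not tested. The largest decreases with PRMT5 depletion and Dex were of SWI5, a recombination mediator, at -1.44 (adjusted p = 5.28e-08), of the end joining polymerase POLM at -0.93 (adjusted p = 2.16e-08) and of the glycosylase NTHL1 at -0.90 (adjusted p = 0.000138). The largest increases there were of the nuclease scaffold SLX4 at 0.67 (adjusted p = 1.93e-05), of SMARCAD1 at 0.52 (adjusted p = 0.000471) and of MLH3 at 0.50 (adjusted p = 0.000205). With HP1γ depletion and Dex they were, among decreases, the checkpoint kinase WEE1 at -1.04 (adjusted p = 1.38e-08) and the checkpoint clamp subunits HUS1 at -0.74 (adjusted p = 4.24e-05) and RAD9A at -0.58 (adjusted p = 0.00492). Among increases stood APLF at 0.88 (adjusted p = 1.40e-05), SFR1 at 0.52 (adjusted p = 0.0176) and MLH3 at 0.42 (adjusted p = 0.00260).

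Genes of S phase and of mitosis moved along with the depletions. Of 20 genes of DNA replication and S phase, 16 were lower and 0 higher after PRMT5 depletion in each treatment, and 15 (Eth) or 16 (Dex) were lower and 1 higher after HP1γ depletion. Of all genes 21.6% (Eth) and 21.9% (Dex) were lower with PRMT5 depletion, and 15.2% and 12.3% with HP1γ depletion. Their summed level was 3336 to 3666 CPM over the 6 siNS libraries, 2282 to 2588 over the 6 siHP1γ libraries and 2445 to 2741 over the 6 siPRMT5 libraries. Of 11 genes of G2 and mitosis, 4 were higher and 0 lower with Eth, and 7 higher and 1 lower with Dex, after PRMT5 depletion, against 0 higher and 6 (Eth) or 7 (Dex) lower after HP1γ depletion. Of all genes 20.6% were higher with PRMT5 depletion in either treatment. Their sum was 4247 to 5000 CPM in siNS, 3495 to 4124 in siHP1γ and 4864 to 6661 in siPRMT5. MKI67 weighed most in this sum. It stood at 1408 ± 122 CPM (mean ± SD, n = 3) in siNS Eth and 2356 ± 499 in siPRMT5 Eth. With Dex it stood at 1668 ± 195 and 2185 ± 525. After PRMT5 depletion 8 of the 11 genes had positive and 3 negative log2 fold changes in each treatment. The sum of the 55 repair genes was 4793 to 5131 CPM in siNS, 4139 to 4548 in siHP1γ and 4439 to 5204 in siPRMT5. The 5 end joining genes made up a large part of this sum. Their mean sum was 2243 of 4914 CPM in siNS Eth and 2300 of 4950 in siNS Dex. In siHP1γ their mean sum was 1944 of 4493 with Eth and 1875 of 4404 with Dex. In siPRMT5 it was 2120 of 4651 and 2212 of 4850. The part of these cell cycle genes in the repair gene values was not tested.

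**Figure D4:**
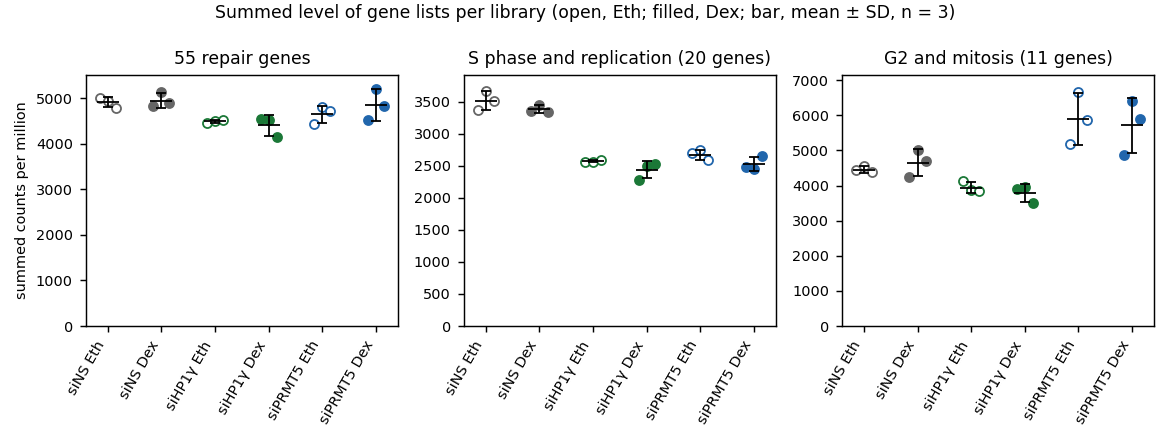
Summed level in CPM (vertical axes, from 0) of the 55 repair genes, of 20 S phase genes and of 11 G2 and mitosis genes in each library of the 6 conditions (horizontal axes), with open points for Eth, filled points for Dex and bars for the mean ± SD of 3 libraries. The S phase sum is lower in all 12 depleted libraries than in the 6 siNS libraries, and the mitosis sum of every siHP1γ library is below every siNS library.

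The listed genes were long and often had a close divergent neighbour. Their median gene length was 64961 bases and their median exon number 15, against 35701 bases and 9 exons over 11672 coding genes tested (GENCODE 44, hg38). Across the 55 genes, Spearman's rho between gene length and the log2 fold change lay between -0.11 and 0.049 over the 4 depletion comparisons. For exon number it lay between -0.123 (PRMT5 with Dex) and 0.305 (HP1γ with Eth), and for mRNA length between 0.126 and 0.236. Over the coding genes tested, the ranges were 0.0278 to 0.0634 for gene length, -0.0265 to 0.131 for exon number and 0.0247 to 0.112 for mRNA length. These values describe genes that share libraries. In siPRMT5 Dex, replicate 2 was the highest and replicate 1 the lowest library for BRCA2, ATM and PRKDC. A divergent coding neighbour started within 1000 bases of 18 of the 55 genes (32.7%), against 11.2% of 11674 coding genes tested, among them NPAT beside ATM and NBR1 beside BRCA1. Exons of 39 of the 55 genes (70.9%) overlapped exons of another gene to some extent, and this share was not computed over all genes tested. The strand setting and the annotation used in counting are not given in the sources used here, so reads of such pairs may have been set aside or shared. The values of XRCC3, RAD50, ERCC5 and LIG3 in particular carry that limit. Further called genes carry it as well. The overlap took 28.8% of the exon bases of TP53BP1, 28.6% of ERCC1, 28.2% of XRCC1 and 24.6% of XPC. It took 24.2% of those of MSH6, 19.9% of RAD54L and 19.6% of FANCA.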

How the data were processed

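The authors sequenced Lexogen libraries of total RNA on an Illumina instrument, 3 from each of 6 conditions of 1 cell line. Per the study's methods and the submitters' processing notes, reads were mapped to hg38 with Bowtie2 (2.4.2), an aligner that does not split reads over introns, and counted per gene symbol with HTSeq (0.9.1). The annotation and strand setting of the counting are not given in the sources used here, so reads of overlapping and antisense genes could not be told apart. The values used are these deposited raw counts, 1 file per library, with no normalization. The authors' own comparison tables, made with DESeq2 (2.11.40.7), hold fold changes and p-values and were not used. Groups follow the sample titles.

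Here counts were tested with edgeR 4.0.16 in R 4.3.3 (quasi-likelihood test, TMM factors, filterByExpr over the 6 groups, 1 mean per group, all 18 libraries in 1 fit with 12 residual degrees of freedom), and p-values were adjusted by Benjamini-Hochberg over 15298 genes. Depletions and differences of Dex responses were called at an adjusted p under 0.05, Dex responses at an adjusted p under 0.01 and at least 1.5-fold. Standard errors (SE) are the log2 fold change divided by the root of F. Levels are counts per 1000000 of TMM-scaled library size. The procedure was tested on simulated data. With 3 libraries a group, an exact permutation test of 1 gene could not go below 0.1, so none was used. Alternatives were DESeq2 1.42.0, other scalings and filters, smaller fits, a replicate block, a fold limit and leaving out each library. Promoters came from RefSeq (GRCh38.p14) and gene spans, exons and neighbours from GENCODE 44 (hg38), in which 88.6% of the symbols tested were found.

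The 55 genes, their classes, the further repair genes and the cell cycle lists were chosen with earlier results of these data known. Full statistics were given to the 5 called genes with the largest change in each direction in each depletion comparison and in PRMT5 against HP1γ, to every gene called in a Dex response or a difference of responses, and to BRCA1, BRCA2, ATM, ATR, PRKDC, FANCD2 and PARP1. Of the further repair genes, the 3 largest called changes in each direction with Dex were named.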

Additional observations from a re-analysis of the deposited data

Results flagged for a closer look

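The Dex response of NBN differed between PRMT5-depleted and siNS cells by the test of that difference, at 0.77 ± 0.138 on the log2 scale (SE, edgeR adjusted p = 0.00184, 3 libraries in each of the 4 groups). NBN was the 1 gene of the 55 that did so. Its level rose with Dex in PRMT5-depleted cells (0.60), and the value in siNS cells was -0.17, which did not pass the threshold. Leaving out each library in turn gave differences from 0.68 to 0.83, all past the threshold, and the other tools and scalings also called it. The cause was not tested.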

How the results depend on the processing

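No called gene changed direction under any alternative. Over fits that left out 1 library, the numbers of listed genes called ranged from 13 to 17 for HP1γ with Dex, 12 to 19 with Eth, 22 to 29 for PRMT5 with Dex, 23 to 29 with Eth, 25 to 34 for PRMT5 against HP1γ with Dex and 24 to 32 with Eth. They were 1 throughout for the Dex response in siNS cells, 0 throughout in HP1γ-depleted cells and for the difference of its response, 0 to 3 for the response in PRMT5-depleted cells and 1 to 4 for the difference of that response. Calls of single listed genes were lost 179 times over these 18 fits, 7 times with DESeq2 on all libraries, 3 with its size factors, 14 with library size alone, 19 without a filter, and 10 (edgeR) and 23 (DESeq2) when only the compared libraries were fitted. A fold limit (2-fold for Dex responses, otherwise 1.5-fold) left 0 and 0 genes for the Dex responses of siNS and PRMT5-depleted cells. It left 0 (Dex) and 2 (Eth, XRCC1 and XPA) for HP1γ, 5 (BRCA2, RAD51C, NBN, FANCF and FANCD2 with Dex) and 5 (RAD51C, XRCC2, RBBP8, FANCD2 and ERCC5 with Eth) for PRMT5, and 5 (Dex) and 7 (Eth) for the direct comparison, so most changes were below 1.5-fold. Without adjustment the difference of the Dex response held for 7 genes with HP1γ and 12 with PRMT5. With HP1γ, DESeq2 on all libraries called 1 (XPC). With PRMT5 it called 3 (RAD52, NBN and TP53BP1), a fit of the compared libraries alone 3 by edgeR and 2 by DESeq2, and DESeq2 size factors, library size alone and a filter of 10 counts in every library 2 each, where NBN was always among them. Apart from the fold limit, the cause of these changes was not tested.

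Scaling by library size alone moved class medians and turned the sign of 4 that lay near 0, those of HP1γ for the recombination mediators with Eth (from -0.038) and, with Dex, for the recombination mediators (from -0.0016 to 0.080), the helicases (from -0.0012 to 0.080) and the Fanconi genes (from -0.0075). DESeq2 size factors also turned the mediators and helicases with Dex. For HP1γ with Eth they became 0.019 (recombination mediators), -0.13 (recombinase paralogs), -0.054 (end resection), -0.16 (Fanconi), -0.12 (end joining), 0.19 (damage signalling), 0.28 (single-strand break repair) and 0.079 (nucleotide excision repair). With Dex they became -0.029 (recombinase paralogs), 0.074 (Fanconi), -0.11 (end joining), 0.16 (single-strand break repair) and -0.16 (nucleotide excision repair), and for PRMT5 with Eth 0.032 (end joining). This scaling shifted the median of all genes by 0.086 with Dex and 0.069 with Eth. Replicate numbers gave no clear pairing of the libraries, though a weak one was not excluded. Of 45 same-numbered pairs 6 had a correlation of deviations above 0.1 (range -0.19 to 0.31), and 10 of 18 libraries correlated best with their own number of the 3. By pair of groups, the mean correlation of same-numbered libraries ran from -0.089 (siHP1γ Dex with siPRMT5 Eth) to 0.17 (siNS Eth with siHP1γ Dex). With the replicate number as a block, the difference of the Dex response with PRMT5 held for 2 genes (NBN and TP53BP1), 2 single-gene calls were lost, and no other number of calls moved by over 1.5 times. Low counts limited FANCF, ERCC5 and RAD51B most, with lowest counts of 21, 25 and 51 in a library.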
